A study of Mus musculus with 6 samples.

Results

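Complement is a cascade of blood and tissue proteins that marks cells and debris for removal and releases inflammatory fragments. The genes described here encode its soluble enzymes, some of its activating proteins and the inhibitors that restrain it: C2, Cfb, C4b, Cfp, Fcna, Serping1, Cd55, Cd59a, Cr1l and Cd46. They were chosen by gene symbol, as enzymes and regulators other than C1q and the anaphylatoxin receptors, and each was read from the probe set whose only gene symbol was that gene. All 10 genes had 1 such probe set, among 19938 genes measured in this way.

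The RNA came from primary microglia, the macrophages of the brain, grown from the cerebral cortex of mouse pups aged 2 days, collected after 10 days of culture and replated for 24 h with no further treatment stated. There were 3 arrays of fosB-null cells and 3 of wild-type cells. The fosB-null mice were homozygous for the null allele fosBG, which had been backcrossed to C57BL/6J to generation N20, so that all cells of the animal carried it and not microglia alone. The wild-type cells came from C57BL/6J mice, which the design names as controls without calling them littermates. The number of pups behind each culture is not stated in the labels used here. Values are log2 signals, 1 for each probe set and array, and differences are fosB-null minus wild-type. Arrays that carry the same replicate number in the 2 groups are called pairs 1, 2 and 3 here, because their values moved together.

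In the classical and lectin pathways, C1 or a ficolin bound to its proteases cleaves C4 and C2, whose fragments join into an enzyme that cleaves C3, the C3 convertase. In the alternative pathway factor B, the product of Cfb, takes the place of C2, and properdin, the product of Cfp, holds the enzyme together. C1 inhibitor, encoded by Serping1, blocks the first proteases, and the membrane proteins CD55, CD46 and Crry (the product of Cr1l) break up or inactivate convertases. CD59 stops the last step, the membrane attack complex. Microglia are a main source of C1q in the brain, and complement tags synapses for removal by them during development.

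None of the 10 genes passed the test, and the clearest differences were lower signals of C2 and Fcna in fosB-null cells. C2 differed by -0.58 on the log2 scale and Fcna by -0.24, and both were lower in all 3 pairs. Cfp was higher in 2 pairs, by up to 0.42, and Cd59a and Cr1l were lower in 2 pairs by at most 0.26 and 0.14. C4b, Cfb, Serping1, Cd46 and Cd55 had exactly the same deposited value in both arrays of every pair. The adjusted p was 1 for each of the 10 genes (limma with Benjamini-Hochberg adjustment over 23410 probe sets, threshold 0.05), and that fit called 1 probe set in all, or 0.00427%. At an unadjusted p under 0.05 limma gave 1 of the 10 genes, C2, and 169 of all probe sets, or 0.722%. With the replicate number as a block, limma called 0 probe sets, with 541 at an unadjusted p under 0.05, or 2.31%. With that number as a random block it called 47, or 0.201%, and 0 of the 10 genes.

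**Figure D1:**
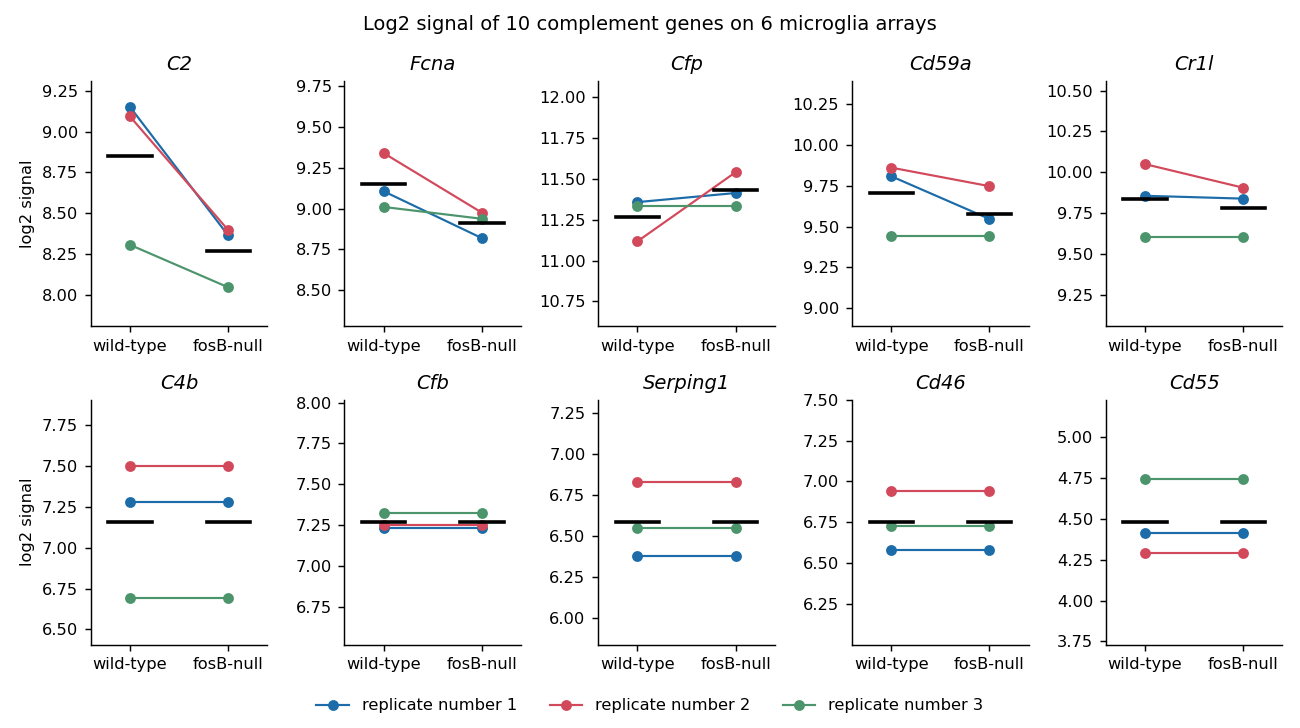
Log2 signal of each gene (vertical axis, with the same span of 1.5 log2 units in every panel) in wild-type and fosB-null arrays. Points are single arrays, lines join arrays of the same replicate number and black bars are group means: C2 and Fcna fall along every line, and the lower row of panels holds 5 genes with level lines.

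C2, the protease that gives the classical and lectin convertase its active site, was the member with the largest difference. Its log2 signal was 9.15, 9.09 and 8.31 in wild-type arrays 1 to 3 and 8.36, 8.40 and 8.05 in fosB-null arrays 1 to 3. Wild-type arrays 1 and 2 were the high ones, and the groups overlapped, since wild-type array 3 lay below fosB-null arrays 1 and 2. The means were 8.85 ± 0.47 and 8.27 ± 0.19 (SD, n = 3 each), and the pairs differed by -0.79, -0.70 and -0.26. The difference of -0.58 had a standard error of 0.23 and a 95% interval from -1.13 to -0.03, or 1.50-fold lower. Limma gave an unadjusted p of 0.0422, and its adjusted p was 1. A difference of -0.5 or beyond was found in 49 of all probe sets, or 0.209%. That cut was not planned and lies just inside the C2 value, so the share does not measure how unusual C2 is.

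Among single arrays, wild-type array 3 moved the C2 difference most when left out. Without it the difference was -0.85 (limma unadjusted p = 0.000534, adjusted p = 1). With each of the other arrays left out in turn it lay between -0.64 and -0.43, with limma unadjusted p from 0.0525 to 0.124. Array 3 was the lowest in both groups, so leaving out only 1 of that pair shifts the comparison. With both arrays of replicate 1, 2 or 3 left out, the C2 difference was -0.48, -0.52 and -0.74. For C2 the limma p before and after adjustment was 0.0461 and 0.674 with the replicate block, and 0.00106 and 0.131 with the random block. An exact permutation test of the 6 arrays, two-sided and without regard to pairs, gave p = 0.3. The smallest p that 3 against 3 allows is 0.1.

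Genes next to C2 on the chromosome had smaller differences, a comparison given without a test. C2 and Cfb are adjacent genes on chromosome 17, arisen by duplication and encoding related proteases, and C4b lies on the same chromosome. The Cfb values were tied in every pair. The 5 nearest measured genes beyond Cfb, which are C4a, Stk19, Dxo, Skiv2l and Nelfe, differed by -0.06 to 0.01, and the 5 beyond C2, which are Zbtb12, Ehmt2, Slc44a4, Neu1 and Snord52, by -0.04 to 0.01. No neighbour had an unadjusted p below 0.62 in limma. Fosb itself lies on chromosome 7, which holds none of the 10 genes.

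**Figure D2:**
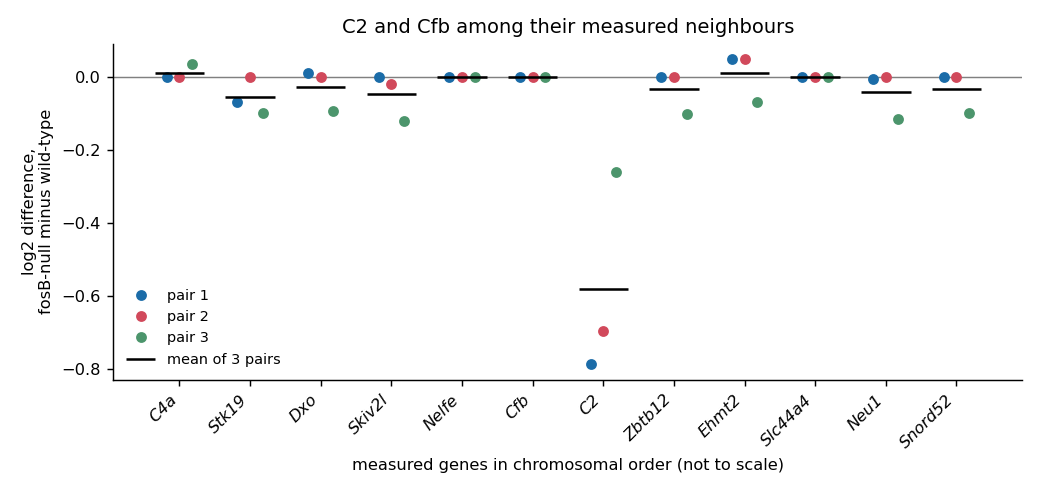
Log2 difference, fosB-null minus wild-type (vertical axis), of C2, Cfb and the 5 nearest measured genes on each side, in chromosomal order and not to scale. Points are the 3 pairs and bars their mean: C2 at -0.58 lies below all the others, whose means run from -0.06 to 0.01.

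The genes whose signals followed C2 most closely over the 6 arrays were Apoc1, Thsd1, Med31, Kctd10 and Nptx1. Their Pearson correlations with C2 were 0.997, 0.997, 0.994, 0.993 and 0.991. These were the highest among 12146 other single-gene probe sets with an SD of at least 0.1, with Gm and Rik genes left out. Apoc1, which encodes an apolipoprotein of plasma lipoproteins, had log2 signals of 10.94, 10.93 and 10.16 in the wild-type arrays and of 10.24, 10.22 and 9.98 in the fosB-null ones. It thus shared with C2 high wild-type arrays 1 and 2 and a lower array 3, and differed by -0.53 (limma unadjusted p = 0.0445, adjusted p = 1). The other 4 differed by -0.23 to -0.12. Apoc1 is one of the Apoc genes near Fosb, and whether that position bears on its difference was not tested. These correlations describe 6 arrays that form pairs and share replicate numbers, and so carry no p.

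Fcna, which encodes ficolin A, a pattern-recognition protein of the lectin pathway made by macrophages, was the only member whose groups did not overlap. Its log2 signal was 9.11, 9.34 and 9.01 in wild-type arrays 1 to 3 and 8.82, 8.98 and 8.94 in fosB-null arrays 1 to 3. All wild-type arrays were above all fosB-null arrays, the nearest being wild-type array 3 and fosB-null array 2. Groups that do not overlap, in either direction, were found in 262 of all probe sets, or 1.12%. The means were 9.15 ± 0.17 and 8.91 ± 0.08 (SD, n = 3 each), and the pairs differed by -0.29, -0.36 and -0.07.

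The difference in Fcna, 1.18-fold, had a standard error of 0.10 and a 95% interval from -0.49 to 0.00. The limma p was 0.052 before adjustment and 1 after it. Under the replicate block these were 0.0781 and 0.674, and under the random block 0.00361 and 0.222. The difference was -0.31 when wild-type replicate 3 was left out and -0.15 when wild-type replicate 2 was, the extremes over single arrays. The exact permutation test, also without regard to pairs, gave p = 0.1. That is the smallest it can give, and any groups of 3 that do not overlap give it. Lower values in all 3 pairs, as in C2 and Fcna, were found in 1305 of all probe sets, or 5.57%, and higher values in all 3 in 515, or 2.2%.

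Because FosB is part of AP-1, the upstream sequence of Fcna was searched for the AP-1 site and for sites of interferon-activated factors. RefSeq's promoter table (GRCm38.p6) held 6 of the 10 genes: Fcna, Cd59a, Cr1l, Cfp, Cd46 and Cd55. C2, Cfb, C4b and Serping1 are named only. The 250 bases before the start of Fcna, chr2:25627975-25628224 on the minus strand, are shown 5′ to 3′ because Fcna is the member whose groups did not overlap, with the letters GAGGAA in capitals.
Fcna: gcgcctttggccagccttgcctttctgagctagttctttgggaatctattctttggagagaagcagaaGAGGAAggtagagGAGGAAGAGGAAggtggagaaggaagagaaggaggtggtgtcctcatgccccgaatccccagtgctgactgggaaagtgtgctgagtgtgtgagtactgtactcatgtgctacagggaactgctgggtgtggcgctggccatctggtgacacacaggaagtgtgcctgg
GAGGAA is the core bound by PU.1, a transcription factor that defines macrophages and microglia. It was searched after the sequence had been read. It occurs 3 times on the shown strand, starting 182, 169 and 163 bases before the gene start, and 1 time in the Cd59a promoter. Of 32851 promoters of this length 23.3% held it at least once on either strand, and 0.429% at least 3 times. The cut of 3 follows the count in Fcna, so that share is description and does not measure how unusual Fcna is. No match to the AP-1 letters TGANTCA or the gamma-activated site TTCNNNGAA was found in any of the 6 promoters on either strand, where 6.75% and 7.02% of all promoters had one.

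Cfp was the only member with a higher mean in fosB-null cells. Properdin, its product, is made by myeloid cells and is the one soluble factor that stabilises the alternative convertase. Its log2 signal was 11.36, 11.12 and 11.33 in wild-type arrays 1 to 3 and 11.41, 11.54 and 11.33 in fosB-null arrays 1 to 3. Pair 3 was tied exactly, pair 1 differed by 0.06 and pair 2 by 0.42, so the difference came mostly from pair 2, and the groups overlapped. The mean difference was 0.16 with a standard error of 0.10 and a 95% interval from -0.07 to 0.39 (limma unadjusted p = 0.141, adjusted p = 1). It was 0.08 without wild-type replicate 2 and 0.03 without both arrays of replicate 2. Higher values in at least 1 pair with none lower occurred in 22.9% of all probe sets, and the opposite, seen in 4 of the 10 genes, in 32.6%.

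Cd59a and Cr1l, the membrane regulators with the brighter signals, differed little. Cd59a, one of 2 mouse genes for CD59, had log2 signals of 9.81, 9.86 and 9.44 in the wild-type arrays and 9.55, 9.75 and 9.44 in the fosB-null ones. Pairs 1 and 2 were lower by 0.26 and 0.11 in fosB-null arrays, pair 3 was tied and the groups overlapped. The mean difference was -0.12 with a 95% interval from -0.45 to 0.20 (limma unadjusted p = 0.39, adjusted p = 1). Without fosB-null replicate 3 or wild-type replicate 2 it was -0.06 and -0.05, and without wild-type replicate 3 it was -0.26. Under the random block the limma p was 0.0417 before adjustment and 0.487 after it. Of all probe sets 1473, or 6.29%, were lower with a p under 0.05 before adjustment in that fit, as were C2, Fcna and Cd59a, or 3 of the 10 genes. Its paralog Cd59b, with group means of 5.99 (wild-type) and 5.92 (fosB-null), differed by -0.12, -0.10 and 0.01 in the pairs.

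The upstream sequence of Cd59a, chr2:104095551-104095800 on the plus strand of GRCm38.p6 in RefSeq's table, held the only match among the 6 promoters to the interferon-stimulated response element, whose core of a repeated GAAA spaced by any 2 bases was searched on both strands. It is printed for that match, which is in capitals and starts 187 bases before the gene start.
Cd59a: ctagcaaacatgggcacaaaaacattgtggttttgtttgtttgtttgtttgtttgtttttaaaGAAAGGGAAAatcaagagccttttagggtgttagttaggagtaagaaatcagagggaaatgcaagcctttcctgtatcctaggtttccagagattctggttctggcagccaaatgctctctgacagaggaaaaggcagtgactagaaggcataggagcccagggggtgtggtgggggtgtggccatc
The same element was found in 2.98% of all promoters. The match describes the sequence and not a bound site.

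Cr1l encodes Crry, the broadly expressed mouse inhibitor of C3 convertases. Its log2 signal was 9.86, 10.05 and 9.60 in the wild-type arrays and 9.84, 9.91 and 9.60 in the fosB-null ones. The lines of the 3 pairs ran nearly level, with differences of -0.02, -0.14 and 0.00, and the groups overlapped. The mean difference was -0.05 with a 95% interval from -0.38 to 0.27 (limma unadjusted p = 0.704, adjusted p = 1). It changed sign when wild-type replicate 2 or fosB-null replicate 3 was left out, at 0.05 and 0.04, which leaves a pair incomplete. With both arrays of replicate 1, 2 or 3 left out it stayed negative, at -0.07, -0.01 and -0.08.

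The other 5 genes gave no difference to read, since their values were identical within every pair. C4b, which encodes the C4 protein cleaved in the classical and lectin pathways, had 7.28, 7.50 and 6.69 in arrays 1 to 3 of either group. The spread over replicate numbers was thus 0.81, while the difference within each number was 0. Cfb, the alternative pathway protease, had 7.23, 7.25 and 7.32, a spread of 0.09. Serping1 had 6.38, 6.83 and 6.55, and Cd46, which in mice is expressed mainly in the testis, had 6.58, 6.94 and 6.73. Cd55, which encodes decay-accelerating factor, had 4.41, 4.29 and 4.74. Cr1l, Cd46 and Cd55 all lie on chromosome 1.

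**Figure D3:**
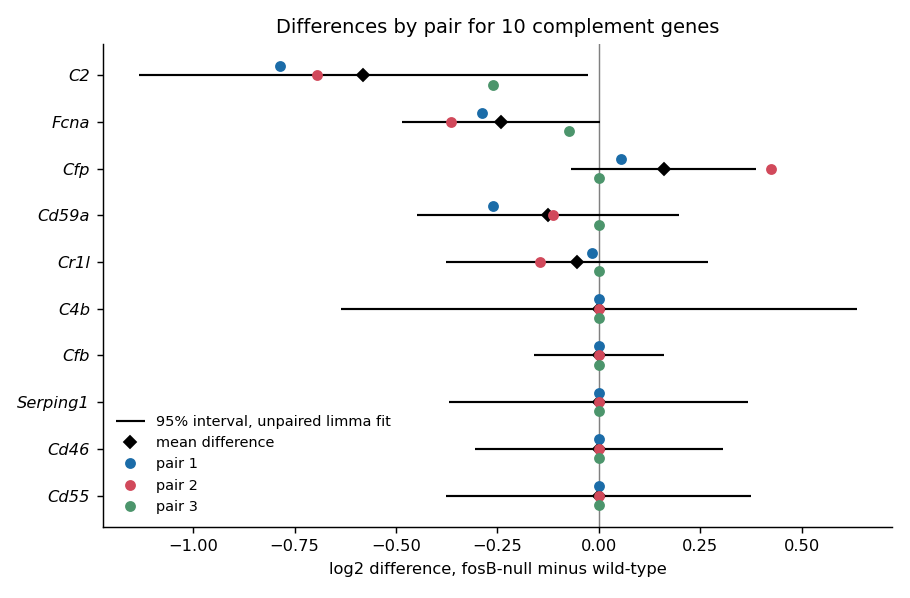
Log2 difference, fosB-null minus wild-type (horizontal axis), for each gene. Coloured points are the 3 pairs, diamonds the mean and lines the 95% interval of the unpaired limma fit: C2 has its whole interval below 0, from -1.13 to -0.03, and 5 genes have all 3 pairs at 0.

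Exact ties were frequent on these arrays, and a tie is not a measurement of equal expression. What produced them is not known from the sources used here, and how it bears on the differences and p-values was not tested. Values identical in all 3 pairs made up 27.8% of all probe sets tested, against 5 of the 10 genes. The tied genes were the ones with low signal: the brightest of them, Cfb, averaged 7.27, and among all probe sets at or below that level 47.7% were identical in all pairs. The dimmest gene that differed, C2, averaged 8.56, and at or above that level the share was 9.3%. In pair 3 the values were tied in 8 of the 10 genes and in 56.0% of all probe sets. Cd55 lay above only 4.2% of probe sets on the array and Serping1 above 23.8%, against 90.8% for Cfp.

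**Figure D4:**
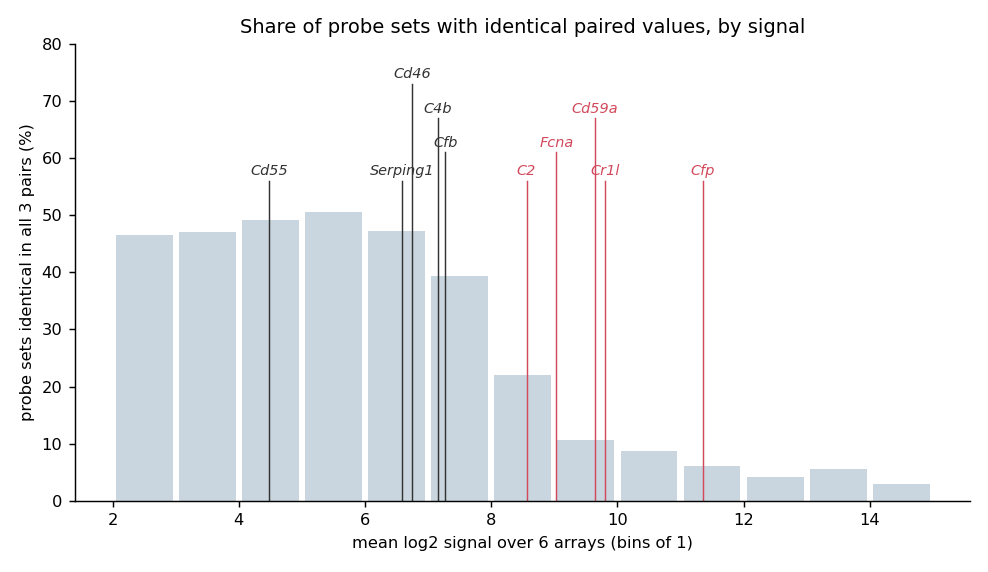
Share of probe sets with identical values in all 3 pairs (vertical axis, percent) by mean log2 signal over 6 arrays (horizontal axis, bins of 1 log2 unit). Vertical lines mark the 10 genes, dark for those tied in all pairs and red for those that differ: the dark lines stand at 7.27 or lower, the red ones at 8.56 or higher.

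Close paralogs of C4b and Cd55 were read as well. C4a, the near-identical copy of C4b, was tied in pairs 1 and 2 and differed by 0.04 in pair 3. Cd55b, the second mouse gene for CD55, was tied in all 3 pairs at a mean of 3.55, above only 1.8% of probe sets. Whether probes separate C4b from C4a, Cd55 from Cd55b or Cd59a from Cd59b is not stated in the annotation, so values of these genes are uncertain as to the copy.

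The rest of the complement system was compared in the same fit, over 43 measured genes of a list of 48. Of these 14 were lower, 15 higher and 14 tied in all pairs, with a median difference of 0.00, which was also the median over all probe sets. Without a block limma called 1, C5ar2, the second receptor for C5a, at -1.80 (adjusted p = 0.00162). C5ar1, the main C5a receptor, differed by -0.90 (limma unadjusted p = 0.00154, adjusted p = 1). In that fit none of the other 41 genes reached an unadjusted p below 0.05. The limma adjusted p of C5ar2 was 0.539 with the replicate block and 7.46e-06 with the random block. For C5ar1 these were 0.674 and 0.00374. The random block called 47 of all probe sets, or 0.201%. The 14 recognition proteins and initiating proteases lay between -0.08 for C1s1 and 0.18 for C1ra, both of which belong to the first proteases that C1 inhibitor blocks. C1s1 differed only in pair 3, by -0.24, and lay above only 5.7% of probe sets. The 7 terminal pathway genes lay between -0.01 and 0.00, with 4 tied in all pairs, and 10 further regulators between -0.07 for Cd59b and 0.03 for Cpn1, with 5 tied. The 11 receptors and binding proteins ran from -1.80 for C5ar2 to 0.12 for Itgax, with 3 lower, 7 higher and 1 tied in all pairs. Among the enzymes and regulators themselves 4 were lower, 1 higher and 5 tied, with a median of 0.00.

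C2, Cfb, C4b and Serping1 belong to the complement genes that interferons are known to induce, so interferon response genes were set beside them. Cfb, C4b and Serping1 were tied in every pair, which left C2 alone to compare. Of 23 measured genes of a list of 28, 22 had a lower mean in fosB-null arrays and 1 was tied, with a median difference of -0.19. Of all 23410 probe sets 9657 were lower, 7243 higher and 6508 tied in all pairs. Over the 16902 that differed in a pair, 57.1% were lower and the median was -0.01. None of the 23 passed the adjusted threshold in limma without a block. In that fit 4 had an unadjusted p under 0.05, which 169 of all probe sets, or 0.722%, also had. Those 4 were Ifit1 at -0.59, Rtp4 at -0.68, Oasl2 at -0.54 and Irf7, a transcription factor of this response, at -0.33. With the random block Oasl2 (limma adjusted p = 0.00939) and Irf7 (limma adjusted p = 0.0288) passed, among 47 of all probe sets, or 0.201%. Averaged over the 23 genes, pairs 1 to 3 differed by -0.26, -0.21 and -0.17, the order seen in C2. In pair 3, where C2 differed least, Ifit1 differed by -0.13, Irf7 by -0.25, Oasl2 by -0.59 and Rtp4 by -1.02. Their part in the C2 difference was not tested.

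**Figure D5:**
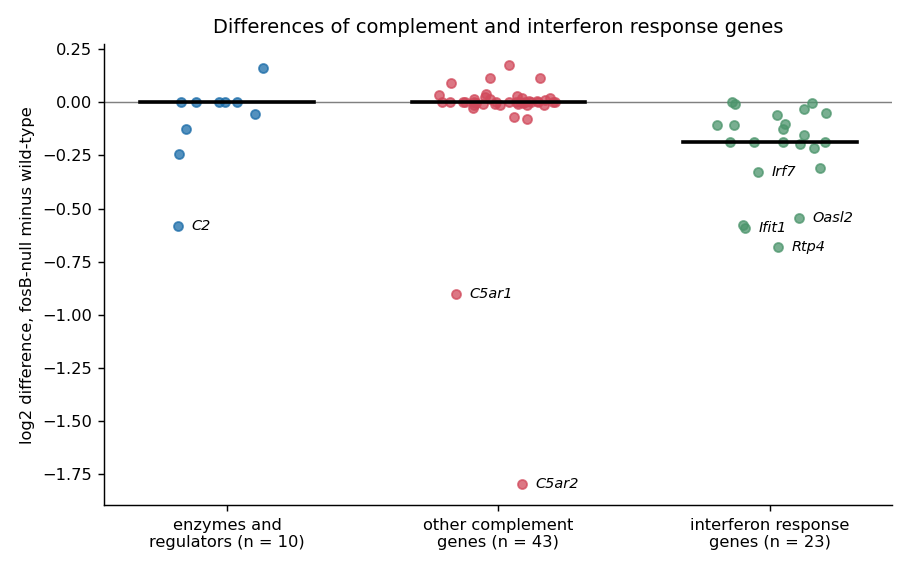
Log2 difference, fosB-null minus wild-type (vertical axis), of each measured gene in 3 lists. Points are genes, bars list medians (0.00, 0.00 and -0.19), and names mark genes with an unadjusted limma p under 0.05: C2 among the 10 enzymes and regulators, C5ar1 and C5ar2 among 43 other complement genes, and 4 of 23 interferon response genes. In the lists, in that order, 5, 14 and 1 genes were tied in all pairs. Their median gene lay above 49.7%, 35.4% and 69.4% of probe sets, so the medians compare lists of unlike signal.

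Markers of microglia and of other cells that a cortical culture could hold were read on the same arrays. Microglia markers, 9 measured of 10, averaged 11.53 to 11.71 (log2) over the wild-type arrays and 11.60 to 11.72 over the fosB-null ones. The astrocyte markers, 8 of 8, had means of 7.11 to 7.28 and 7.11 to 7.29, and 6 of them, Gfap and Aqp4 included, were tied in all pairs. Markers of the oligodendrocyte lineage, 7 of 8, had means of 7.96 to 8.17 and 7.90 to 8.06, with 5 of the 7 lower, and their mean differed by -0.17, -0.11 and 0.02 in the pairs. That order over pairs was also that of C2 and of the interferon list, and its part in the C2 difference was not tested. Fibroblast and mural markers, 8 of 8, had means of 7.19 to 7.39 and 7.28 to 7.51, and differed by 0.10, 0.11 and -0.04 in the pairs, with 3 tied in all pairs. Postn, at 0.69, 0.67 and -0.57, set these values, and without it the other 7 differed by 0.01, 0.04 and 0.04. The list means of neuronal, endothelial and blood cell markers differed by at most 0.03 in any pair, while single markers differed by up to 0.37 (Vwf, in pair 2). In such bulk RNA, fewer cells of a type and less RNA per cell cannot be told apart.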

How the data were processed

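The 6 arrays, 3 a group, were hybridised with biotin-labelled DNA made from 100 ng of RNA each, per the labels' protocols. The authors deposited log2 signals produced in Affymetrix Expression Console, which the submitters' processing notes name. Its version, the summary method, the normalization and the array's genome build are not stated there. That the scale is log2 was taken from the range, 1.73 to 14.6, with array medians of 7.76 to 7.92. No column was left unused.

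Of 35557 probe sets, 21789 had 1 symbol in the platform annotation, 1621 had several and 12147 had none. Symbols were updated through RefSeq (GRCm38.p6, 21698 matched), used otherwise only for gene order and promoters. The 23410 probe sets with a symbol were tested with limma 3.58.1 in R 4.3.3 (lmFit, eBayes, two-sided, no block, no signal filter). The script was tested on simulated data with independent arrays and no exact ties. That run does not cover the ties and pairs seen here. Precision is limited by the number of arrays, and p-values measure the spread between these arrays, which the labels call biological replicates.

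Replicate numbers run from 1 to 3 in both groups. Deviations from the group means correlated within a number at 0.91, 0.82 and 0.82 over tested probe sets, and 62.3%, 54.7% and 56.0% of values were identical, so the pairing comes from the values. The members and gene lists were chosen with earlier results of these data known. All 10 members are named, other complement genes where the unadjusted p was under 0.05 or as extremes of a role group, 4 interferon genes by lowest p and 5 genes most like C2. Cd55b, Cd59b, C4a, Gfap and Aqp4 were named outside that rule, after their values were seen. A comparison of protein sequences was not run.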

Additional observations from a re-analysis of the deposited data

How the results depend on the processing

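For each of the 10 genes, no alternative took the limma adjusted p below 0.05: its lowest value was 0.131 for C2, 0.222 for Fcna and 0.487 for Cd59a, all under the random replicate block, over 20 alternatives each. C2, Fcna, Cfp and Cd59a kept the sign of their difference in all 20. Leaving out single arrays moved C2 from -0.85 to -0.43, and Cr1l from -0.17 to 0.05. Cr1l reversed to 0.0532 without wild-type replicate 2 and to 0.0364 without fosB-null replicate 3. Leaving out a single array leaves a pair incomplete, and it moved C4b, tied in every pair, from -0.23 to 0.23. With both arrays of a replicate number left out, Cr1l kept its sign. The filter on the dimmest 40% removed the 5 genes tied in all pairs.

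The count of probe sets called by limma, 1 as reported, was 0 with the replicate block, 47 with the random replicate block, 0 with the block whose prior left out probe sets tied in all pairs, and 0 without both arrays of replicate 1, 2 or 3. It ranged from 1 to 2 with single arrays left out, with 2 without wild-type replicate 3. An unadjusted p under 0.05 gave 169 probe sets and 1 of the 10 genes. The blocked fit had a prior of 0.358 degrees of freedom, against 2.84 without the block. Its adjusted p of 0.674 was shared by C2, Fcna, Cfp, Cd59a and Cr1l and does not rank them. The block changed no call among the 10 genes.

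Rescaling shifted all probe sets by -0.02 at the median and so broke exact ties: genes lower in all 3 pairs were 2 as deposited, 6 after quantile normalization and 9 after median centring, and genes higher in all 3 were 0, 1 and 0. None of the 10 differences moved by more than 0.024 from rescaling. Each of the 10 genes had 1 probe set, so no choice among probe sets arose.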
